A study of Mus musculus with 7 samples.

Results

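Monocyte-gated cells are the cells of the first run of healthy tissues that held at least 4 unique molecular identifiers (UMIs, counted RNA molecules) summed over the monocyte genes Fn1, F13a1, Ms4a6c, Ms4a4c, Ace, Ccr2 and Csf1r, with less than 3% of their UMIs on Camp and Ngp, granule genes of immature neutrophils. The gate took 136 of the 4078 cells of run 1 (3.335%), in a series of 21763 cells. In blood 93 of 1588 cells passed (5.856%, exact binomial 95% interval 4.753 to 7.127), in bone marrow 29 of 1271 (2.282%, 1.533 to 3.261) and in spleen 14 of 1219 (1.148%, 0.6293 to 1.919).

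The cells came from untreated male C57BL/6J mice, and each library pooled cells of 3 mice. Suspensions of peripheral blood, bone marrow and spleen were sorted for propidium iodide-negative cells positive for CD11b and Ly6G, a gate meant to keep neutrophils, and the RNA of single cells was counted on the 10X platform. Run 1 used mice of 6 weeks and run 2 mice of 8 weeks, with 1 library per tissue in each run, and within a run the same mice gave all 3 tissues. A separate library, in which cells of mice with experimental inflammation and of healthy control blood were tagged and mixed, held 9 gated cells among 4856, 8 of them at exactly 4 UMIs, and was not used further.

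Monocytes are short-lived cells of the mononuclear phagocyte lineage. They arise in the bone marrow from progenitors that need the receptor for macrophage colony-stimulating factor, encoded by Csf1r, and circulate in the blood in classical and nonclassical forms. Mouse classical monocytes carry Ly6C and leave the marrow through the chemokine receptor CCR2, while nonclassical monocytes carry little Ly6C, depend on the nuclear receptor NR4A1 and patrol the vessel wall. Monocytes carry CD11b, the first marker of the sort, but are classed as negative for Ly6G, the second.

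Neutrophils of the same library served as the reference. They were 1224 cells in blood, 528 in bone marrow and 680 in spleen, chosen by at least 3 UMIs over 10 neutrophil genes, at most 1 UMI of the gate genes, at most 1 UMI over 9 lymphocyte genes and the same limit on Camp and Ngp. The 3 libraries of run 1 held 1968514 to 4706927 UMIs. The gated cells summed to 312136 UMIs in blood, 184900 in bone marrow and 52400 in spleen, so counts from spleen are the least precise. The run 1 tables list only genes with at least 11 UMIs in the library, and a gene without a row was taken as 0: Fn1, F13a1 and Ace had no row in spleen and Ace had none in bone marrow. Blood and bone marrow of run 1 shared 2 cell barcodes, none of them of a gated cell.

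The gate genes, which chose the cells, are described without a test, with the level as CPM, the gene's UMIs over all UMIs of the summed cells, times 1e6. Ms4a6c, a membrane protein gene of the MS4A family, stood at 1730 CPM in gated blood cells, 1504 in bone marrow and 1202 in spleen, against 8.335, 6.154 and 1.295 in the neutrophils of the same libraries. It was the most widely detected gate gene, with a UMI in 84 of the 93 blood cells, 28 of the 29 bone marrow cells and 13 of the 14 spleen cells. Ccr2 was at 842.6 CPM in blood, 946.5 in bone marrow and 591.6 in spleen, against 6.482, 1.758 and 0 in neutrophils. Csf1r separated the classes least, at 615.1, 232.6 and 286.3 CPM against 111.1, 21.98 and 77.73.

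The other gate genes differed in where they were seen. Fn1, encoding fibronectin, was at 368.4 CPM in blood and 438.1 in bone marrow, and F13a1, a coagulation factor subunit, at 249.9 and 703.1. Ms4a4c was at 855.4, 481.3 and 992.4 CPM in blood, bone marrow and spleen. Ace, encoding angiotensin-converting enzyme, was listed in blood alone, at 272.3 CPM and in 39 of 93 cells.

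Most members were well above the threshold. The summed gate count had a median of 13 UMIs in blood (range 4 to 52), 24 in bone marrow (4 to 62) and 10.5 in spleen (4 to 35), and 90 of the 136 cells held at least 4 of the 7 genes. Just inside the threshold, 11 cells held exactly 4 UMIs, and just outside it 19 cells held exactly 3, of which 17 were in blood. In blood the 13 cells with 4 or 5 UMIs had 3292 CPM of Plac8 and no Ly6c2 UMI, while the 57 cells with 12 or more had 9256 CPM of Plac8 and 2435 of Ly6c2.

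**Figure D1:**
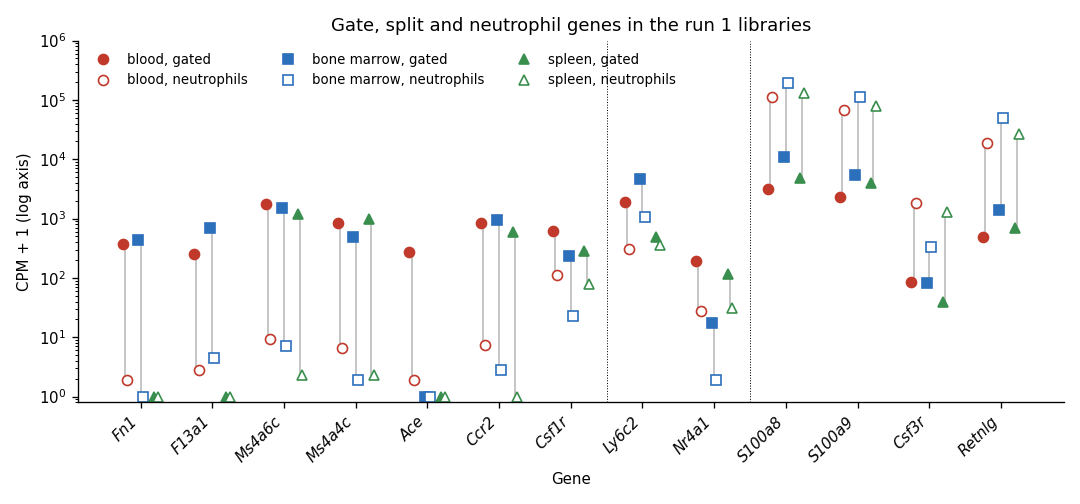
Level of each gate gene (left), split gene (middle) and 4 neutrophil genes (right) as CPM plus 1 on a log axis, for the summed gated cells (filled) and neutrophils (open) of each run 1 library, joined by a line; points at 1 are genes at 0 or without a row. Where listed, the gate genes lie above the neutrophils and S100a8, S100a9, Csf3r and Retnlg below, by construction of the gate and reference for all but S100a8 and S100a9; Ly6c2 in spleen lies at 496.2 against 364 CPM.

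The monocyte label was checked against markers that the gate did not use. Gated cells carried Ctss (cathepsin S) at 1412 to 2666 CPM and Ly86 at 416.4 to 570.3 CPM. Ly6c2 is also found in neutrophils: with each cell thinned to 500 UMIs it was seen in 33.33% of gated cells and 8.507% of neutrophils in blood, in 62.07% and 37.88% in bone marrow, and in spleen in 21.43% and 10.29%, with overlapping intervals (4.658 to 50.8 and 8.113 to 12.83); before thinning the shares were 56.99% and 12.09%, 93.1% and 70.27%, and 35.71% and 20%. In spleen the label held only in part: 5 of the 14 cells had no UMI of any of the 4 genes used below to separate classical from nonclassical cells, and Cx3cr1, Klf4 and Ace had no row. S100a8 and S100a9, the most abundant neutrophil genes, took a median of 0.4906% of a gated cell's UMIs in blood, 0.822% in bone marrow and 0.7897% in spleen, against 15.76%, 34.74% and 17.53% in neutrophils. Ly6g, the second marker of the sort, was 1 of the genes that chose the reference neutrophils, which raises its share in them, so its values are a description. A Ly6g UMI was found at that thinned depth in 3.226% of gated cells and 4.921% of neutrophils in blood, with overlapping intervals (0.6702 to 9.139 and 3.767 to 6.302), in 3.448% and 32.39% in bone marrow and in 0% (up to 23.16%) and 8.529% in spleen. Before thinning the Ly6g shares were 10.75% and 9.232%, 17.24% and 67.61%, and 7.143% and 18.38%.

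The gated cells were deeper than the neutrophils, a difference that the choice of cells sets in part, since the gate needs 4 UMIs of its genes and the reference allows 1. In blood the median depth moved with the gate count, from 774 UMIs in cells with 0 or 1 to 4065 in those with 12 or more. The median was 3148 UMIs per cell in blood, 4988 in bone marrow and 3840 in spleen, against 766, 1822 and 943.5 in neutrophils, ratios of 4.11, 2.738 and 4.069. The median number of detected genes was 1307, 1774 and 1584 against 370, 537.5 and 431.5. Depth alone raises the share of cells with a UMI. With each cell thinned to 500 UMIs, Plac8, a small cysteine-rich protein gene, was seen in 84.95% of gated blood cells and 9.341% of blood neutrophils (93.55% and 13.89% before thinning). S100a4 was then seen in 37.63% and 0.5838% of the same cells (78.49% and 0.7353% before).

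Of the 17 neutrophil markers 12 had helped to choose the cells, among them Ltf (lactoferrin), so the levels of the list are a description. The 17 genes were found in gated cells at a median of 3.991% of their neutrophil level in blood, 5.552% in bone marrow and 5.095% in spleen. In blood they ran from 0.6764% for Stfa2l1 to 26.06% for Ltf. Of the other lists, the 9 NK cell genes summed to 291 UMIs, of which 83.16% lay in 4 cells. The B cell genes took at most 0.007689% of the UMIs of a run 1 library's gated cells and the T cell genes at most 0.005725%. Macrophage markers took 0.03716% of the gated UMIs and 0.06445% of the neutrophil UMIs in blood, 0.01908% and 0.07656% in spleen, but 0.04597% and 0.02602% in bone marrow, where 2 gated cells held at least 10 such UMIs, and 9 to 15 of the 17 genes were at 0 in the gated cells of a library.

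The first comparison asked how gated cells differed from the neutrophils sorted with them, over genes that neither choice of cells had used. Summed counts per library and class were compared with edgeR's quasi-likelihood test, with the library as a block and a false discovery rate of 0.05. The libraries are tissues of the same mice, so the p-values cover the spread between these tissues, not between mice. Of 5930 genes tested, 1547 were higher (26.1%) and 1624 lower (27.4%) in gated cells. The split depended on the scaling: TMM factors were 1.328 to 1.65 for gated cells and 0.5422 to 0.773 for neutrophils, and with library totals instead 2876 genes were higher and 614 lower, 82.4% higher among calls against 48.8%. The median change of all genes moved from −0.02 to 1.06 (log2), a shift of 1.08. Below, a gene rose or fell where both scalings called it, which left the 1547 higher genes (26.1% of those tested) and 614 lower genes (10.4%), and log2 changes are those with TMM. Without the blood library the counts were 1021 higher and 1077 lower.

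The genes with the largest rises included several of the monocyte lineage. S100a4, a calcium-binding protein of motile cells, was at 1185 CPM in gated blood cells, 859.9 in bone marrow and 782.4 in spleen, against 10.19, 4.396 and 1.295 in neutrophils. It rose by 6.38 (SE 0.40, adjusted p = 1.97e-14), with no overlap between classes. Crip1, a LIM-domain protein, was at 5911, 6079 and 4790 CPM against 57.42, 39.56 and 29.79, a rise of 5.97 (SE 0.34). Fcgr1, the high-affinity IgG receptor CD64, was at 112.1, 108.2 and 171.8 CPM, with 0, 0 and 1.295 in neutrophils, and rose by 6.88 (SE 0.71). Cd209a, a C-type lectin, rose by 6.94 (SE 0.61) but was uneven, at 189 CPM in blood, 64.9 in bone marrow and 992.4 in spleen. Only 15 of the 136 gated cells held a Cd209a UMI. Ms4a6b rose by 6.53, Tifab by 6.31, Phf11b by 5.80, the giant scaffold gene Ahnak by 5.70 and Ly86, the partner of the receptor RP105, by 5.64. The class II gene H2-Ab1 rose by 5.69, but 96.69% of the class II UMIs lay in 26 of the 136 cells, and without cells high in class II or the other genes described below it was at −0.16, as leaving out those cells brings about by construction.

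The largest falls were of neutrophil and erythroid genes. Stfa1, a stefin, had no UMI in any gated cell against 216.7, 273.4 and 288.9 CPM in neutrophils, at least 47.1-fold lower, taking 3 counts over the 3 libraries as the floor. Mrgpra2b, a Mas-related receptor gene, also had none, at least 27.6-fold lower. The log2 change was −8.33 for the interleukin gene Il1f9, −8.09 for Retnlb, −7.74 for Ceacam10, −7.69 for Stfa2l1 and −7.25 for Gm5483. The adult globin genes Hba-a1, Hba-a2 and Hbb-bt were at −8.42, −8.43 and −7.72. They were at 0 to 135.2 CPM in gated cells, and their level in neutrophils moved with few cells: globin genes took 1.35%, 9.174% and 0.3783% of the neutrophil UMIs of blood, bone marrow and spleen, but 0.07416%, 0.06083% and 0.01246% without the 3, 12 and 2 cells in which they reached 10%. The gated cells held 0.04261%, 0.07518% and 0.001908%. Reads of near-identical copies such as the alpha-globin and stefin genes may be split between them.

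Among the 24 tested genes that monocytes of both forms share, 14 rose and 1 fell, with a median change of 1.05 against −0.02 for all genes. Ctss was at 2666, 1412 and 1737 CPM in blood, bone marrow and spleen against 87.05, 21.1 and 94.57, and rose by 3.94 (SE 0.33). Ms4a6d rose by 6.58, Psap (prosaposin) by 1.45 and Cst3 (cystatin C) by 1.05. Ms4a6d was at 0 CPM in both classes in spleen and was not called with DESeq2 (adjusted p = 0.0661). Lyz2, encoding lysozyme, was at 39912.1, 29021.1 and 14904.6 CPM against 4487, 14553.5 and 6546, and its change of 0.63 (SE 0.39) did not pass the test (adjusted p = 0.172).

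Lysosomal genes moved mostly upward, and the exceptions fell steeply. Of 18 tested, 12 rose and 2 fell, with a median of 1.39. Ctsc, the protease that activates granule serine proteases, rose by 4.79, Lgmn (legumain) by 3.22, Npc2, a cholesterol carrier, by 2.27 and Ctsh by 1.93. Cd63, a tetraspanin of lysosomes and primary granules, fell by 4.40, and Ctsd (cathepsin D) fell by 3.36, from 574.9 to 977.9 CPM in neutrophils to 133.6 to 189.3 in gated cells.

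Of 26 tested transcription factors, 10 rose and 6 fell, and the median was −0.07. Irf8, a factor that directs progenitors to the monocyte and dendritic cell lineages, was at 499.8, 908.6 and 706.1 CPM in gated cells of blood, bone marrow and spleen against 3.704, 73.84 and 6.477, and rose by 4.03 (SE 0.46). Klf4, needed for classical monocytes, rose by 5.90, from 195.4 CPM in blood and 189.3 in bone marrow against 2.778 and 0, with no row in spleen. It was not called with DESeq2 (adjusted p = 0.103). Tcf4 rose by 2.06. Batf3 rose by 2.63 from 21 gated UMIs, none of them in bone marrow, and was not called with DESeq2 (adjusted p = 0.163). Cebpe, the factor of late granule genes, fell to a change of −2.97, Bcl6 to −3.62, and the immediate-early genes Junb and Fos to −2.64 and −2.63. Spi1, encoding PU.1, was lower by 1.68 with TMM scaling only and lay at 611.1 to 1121 CPM in gated cells and 850.1 to 1604 in neutrophils.

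Receptors separated into opposite groups. Of 7 tested chemoattractant receptors 1 rose and 5 fell, with a median of −4.52. The one that rose was Cx3cr1, the fractalkine receptor, by 5.62 (SE 0.67), with 237.1 CPM in blood and 70.31 in bone marrow against 1.852 and 0.8791. Those that fell were the formyl peptide receptors Fpr1 (−6.05) and Fpr2 (−5.16), the complement receptor C5ar1 (−5.50), Ccr1 (−4.52) and Cxcr4 (−3.52). Of 6 Fc receptor genes, Fcgr1, the neonatal receptor Fcgrt and the inhibitory Fcgr2b rose, the last 2 by 4.16 and 2.40, and Fcgr3 and Fcgr4 fell, at −1.95 and −2.36. Fcer1g, a signalling chain shared by some of these receptors, was lower by 1.09 with TMM and at 0.03 with library totals.

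Other lists were mixed. Of 8 S100 genes 3 rose, among them S100a4 and S100a10 (by 4.79), and 4 fell, led by S100a8 at −5.79 and S100a9 at −5.61. Of 22 interferon-stimulated genes 3 rose, with Bst2 (tetherin) at 2.65, and 7 fell, with Ifitm1 at −4.80, Isg20 at −2.91 and Rsad2 at −2.80. Of 13 adhesion genes 3 rose (Itgb7, Itgb1 and Icam1) and 3 fell, among them Cd44 at −2.25 and Itgam, which encodes the CD11b of the sort, at −2.14. Of 5 complement and coagulation genes tested F10, coagulation factor X, rose by 5.46 and C5ar1 fell. All 5 neutrophil markers that had not chosen cells fell, among them Hdc (histidine decarboxylase) at −6.00 and Il1b at −4.72, and all 8 erythroid markers fell. No B cell, T cell, NK, platelet, eosinophil or basophil marker outside the choice of cells passed the filter on counts.

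**Figure D2:**
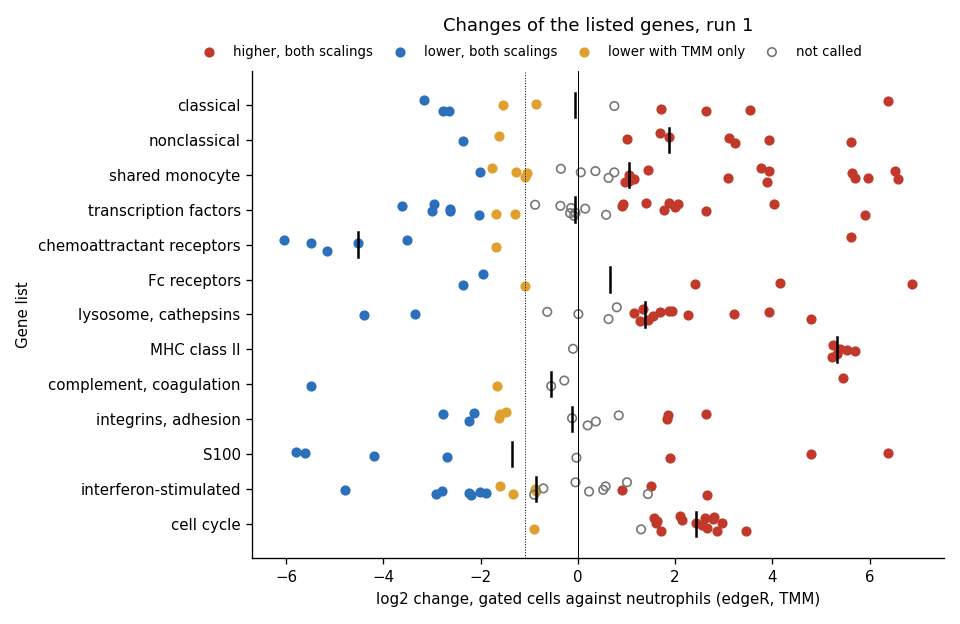
Log2 change of each tested gene of 13 lists, gated cells against neutrophils of run 1 (edgeR with TMM), coloured by call; black ticks are list medians, and the dotted line lies 1.08 below 0, where a gene of unchanged CPM falls. The MHC class II list sits farthest right (median 5.32) and the chemoattractant receptors farthest left (median −4.52).

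Of 10 tested classical genes 4 rose and 3 fell, with a median of −0.06. Plac8 was at 7689, 5760 and 5687 CPM in blood, bone marrow and spleen against 216.7, 245.3 and 312.2, and rose by 3.53 (SE 0.33). S100a4, the integrin subunit Itgb7 (by 2.63) and the chitinase-like gene Chil3 (by 1.71) rose too, but against neutrophils without the limit on Camp and Ngp Chil3 was at −2.66. Among those that fell were Hp (haptoglobin) at −3.16 and Cd177 at −2.66, both also expressed by neutrophils. Ly6c2, the defining gene of classical cells, was at 1916 CPM in blood, 4646 in bone marrow and 496.2 in spleen against 301.9, 1075 and 364, and its change of 0.75 (SE 0.34) did not pass with TMM (adjusted p = 0.0635) but did with library totals, at 1.87.

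Of 9 tested nonclassical genes 7 rose and 1 fell, with a median of 1.88. Ear2, an eosinophil-associated ribonuclease, was at 666.4, 156.8 and 286.3 CPM against 10.19, 9.67 and 11.66, a rise of 3.94 (SE 0.43). Pou2f2 rose by 3.23, Spn (CD43) by 3.11, the receptor gene Treml4 by 1.88, Nr4a1 by 1.69 and Gngt2 by 1.02. Fcgr4 fell, at 102.5, 16.22 and 38.17 CPM against 164.8, 82.64 and 200.8. Itgal, the alpha chain of LFA-1, was at 339.6, 59.49 and 248.1 CPM against 382.5, 142.4 and 369.2, and was called lower with TMM only.

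The same contrast in run 2, which took no part in choosing these cells, could be read for 3012 of the genes called in run 1. Of these 2421 were called in the same direction and none in the opposite one, and 2989 had the same sign. The same gate was applied in run 2, which fixes part of that direction.

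To separate classical from nonclassical genes, the gated cells were split by their UMIs of Ly6c2 plus Ccr2 against those of Ace plus Nr4a1. In GRCm38 these genes lie on chromosome 15 from 75108158 to 75111970 (Ly6c2, minus strand), chromosome 9 from 124101950 to 124113557 (Ccr2, plus strand), chromosome 11 from 105967945 to 105989964 (Ace, plus strand) and chromosome 15 from 101254269 to 101274795 (Nr4a1, plus strand). Ly6c2 has a near-identical neighbour, Ly6c1, and how reads were divided between them is not given in the sources used here. Of the 136 cells 97 leaned classical (60 in blood, 28 in bone marrow, 9 in spleen), 29 leaned nonclassical, all in blood, and 10 were tied, 9 of them with no UMI of the 4 genes. Only 8 cells differed by 1 UMI. With Ace unlisted in bone marrow and spleen, only Nr4a1 could place a cell there as nonclassical-leaning, and its absence there is partly set by the listing of genes. Ace is listed in all tissues of run 2, where nonclassical-leaning cells were 5 of 53 in bone marrow (9.434%) and 8 of 62 in spleen (12.9%).

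**Figure D3:**
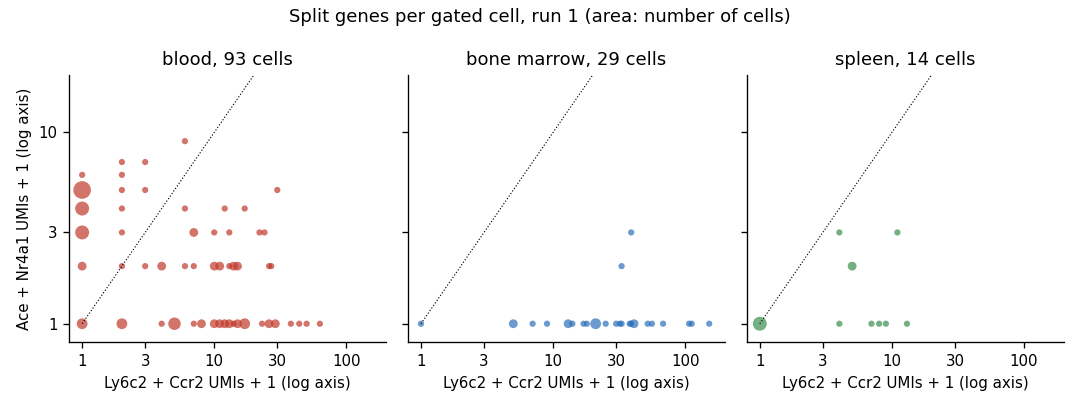
UMIs of Ly6c2 plus Ccr2 (x axis) and of Ace plus Nr4a1 (y axis) in each gated cell of run 1, both plus 1 on log axes, 1 panel per tissue, with the area of a point giving the number of cells and the dotted line marking equal counts. The 29 cells above the line are all in the blood panel, and most bone marrow cells lie to the right along or near the bottom.

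In blood 29 of the 89 cells with a side leaned nonclassical (32.58%, exact binomial 95% interval 23.02 to 43.34), with a median of 1863 UMIs against 4130 in classical-leaning cells. Run 1 has 1 blood library, so no test between these cells was made, and the intervals below cover counting error only. The 4 split genes differed by choice: Ly6c2 was at 2414 CPM in classical-leaning and 68.2 in nonclassical-leaning cells, and Ace at 73.15 and 1142.

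Nonclassical genes outside the split were higher in nonclassical-leaning cells by a median of 2.75 (log2 of the CPM ratio, 12 genes). Eno3, a beta enolase, was at 1074 CPM against 24.38, a ratio of 44.06 (95% interval 19.15 to 124.6). Treml4 was at 460.4 against 32.51 CPM, a ratio of 14.16 (6.258 to 36.07), and Fcgr4, which fell against neutrophils, at 392.2 against 32.51, a ratio of 12.06 (5.209 to 31.19). Ear2 (ratio 8.327), the scavenger receptor Cd36 (8.392), Gngt2 (5.576) and Itgal (4.278) were also higher, and Cd300e had no UMI in classical-leaning cells, at least 20.98-fold lower against a floor of 3 counts. Cx3cr1 differed little, at 306.9 and 215.4 CPM, with an interval of the ratio from 0.7856 to 2.472.

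Classical genes outside the split had a median of −1.21 on the same scale (9 genes), lower in nonclassical-leaning cells. Chil3 was at 934.6 CPM in classical-leaning cells and 85.26 in the others, a ratio of 10.96 (4.63 to 34.08). Fn1 and F13a1, genes of the gate, were at 463.3 and 308.8 CPM against 17.05 each, from 1 UMI. Irf8 was 8.997-fold higher in classical-leaning cells (3.442 to 33.45), while Csf1r was 2.335-fold higher in nonclassical-leaning cells (1.693 to 3.197). Of genes shared by both forms, Ms4a6c was 1.076-fold (0.8599 to 1.359), Lyz2 2.043-fold (1.928 to 2.166) and Ms4a4c 3.231-fold (2.001 to 5.543) higher in classical-leaning cells, and Ctss 1.064-fold (0.891 to 1.263) higher in the others. The neutrophil gene S100a8 was at 3198 and 3137 CPM in run 1.

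**Figure D4:**
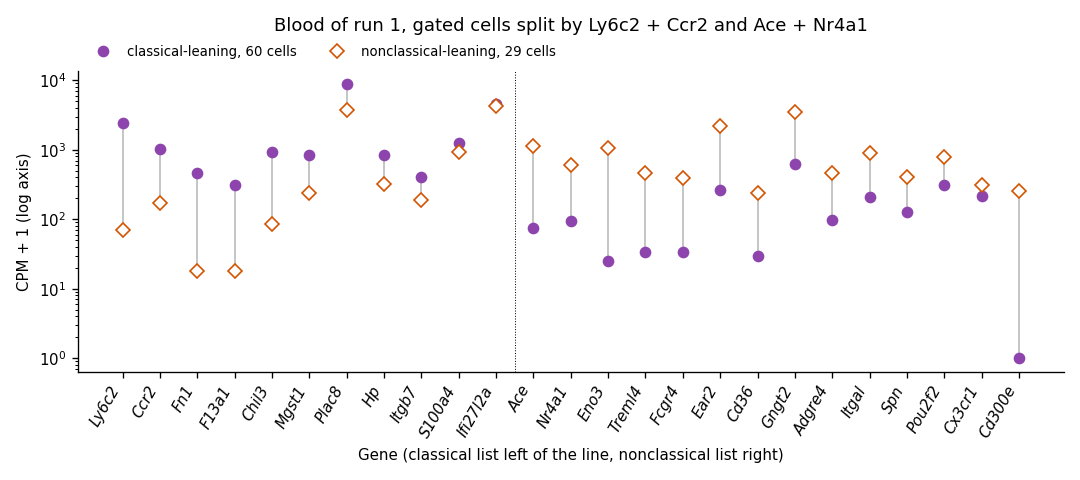
CPM plus 1 on a log axis in the 60 classical-leaning (filled) and 29 nonclassical-leaning (open) blood cells of run 1 for genes of the classical list (left) and the nonclassical list (right); the point at 1 is a gene with no UMI. Eno3 (24.38 and 1074 CPM) shows a wide gap, while Ifi27l2a, S100a4 and Cx3cr1 nearly coincide.

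The blood library of run 2 gave a second value. It held 32 gated cells among 4653 (0.6877%), of which 12 leaned classical and 11 nonclassical (47.83%, 26.82 to 69.41). A fit over both blood libraries, with the library as a block, tested 914 genes that neither the gate nor the split had used; 13 were higher (1.42%) and 6 lower (0.656%) in nonclassical-leaning cells. Higher were Eno3 by 5.55 (SE 0.55, adjusted p = 0.00891), the sphingosine phosphate receptor S1pr5 by 4.87, Ceacam1 by 4.10, Treml4 by 3.48, Cd36 by 3.15, Ear2 by 2.71 and Gngt2 by 2.02. In classical-leaning cells of runs 1 and 2 Eno3 had 6 and 0 UMIs and S1pr5 1 and 1. The filter on counts passed these 2 genes mainly through nonclassical-leaning cells, which partly fixed their direction. Higher in classical-leaning cells were Chil3 (−3.40), the actin-capping gene Capg (−3.63), S100a10 (−3.65), the globin gene Hba-a2 (−3.44) and Irf8 (−2.82). Hba-a2 was at 28.45 CPM in classical-leaning and 17.05 in nonclassical-leaning cells of run 1 and at 11648.5 and 985.6 in run 2, where globin genes took 5.853% of the UMIs of the gated blood cells and 0.6615% without the 2 cells in which they reached 10%. Cd209a had no UMI in nonclassical-leaning cells of either library and was at 239.8 and 834.9 CPM in classical-leaning ones, so it was tested through the latter alone. In run 2 class II genes moved with the split: Cd74 was 5.306-fold (4.536 to 6.24) and H2-Eb1 16.45-fold (8.21 to 38.55) higher in classical-leaning cells, 8 of those 12 cells held at least 30 class II UMIs, and both cells with a Cd209a UMI were class II-rich. In run 1 Cd74 was 1.117-fold higher in nonclassical-leaning cells, and the part of class II-rich cells in these values was not tested. Neutrophil genes also moved with the split in run 2: S100a8 was 2.584-fold (2.264 to 2.952) and S100a9 2.387-fold (2.004 to 2.847) higher in nonclassical-leaning cells, against 1.019-fold and 1.1-fold in run 1, S100a8 there on the classical side, and their part in the fit was not tested. In run 2 the median of the nonclassical list was 1.33 over 8 genes and that of the classical list −0.09 over 7.

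The gated cells were not uniform. Class II MHC genes, which present peptides to helper T cells, were called higher than in neutrophils for 6 of 7 tested genes, with a median of 5.32, but the counts came from few cells. Of 7985 class II UMIs in the gated cells 96.69% lay in the 26 cells with at least 30, and 53 cells had none. Cd74, the invariant chain, was at 9076 CPM in blood, 5008 in bone marrow and 17843.5 in spleen, against 44.45, 58.02 and 286.3 in neutrophils. Within spleen it was at 33395.5 CPM in the 5 cells with at least 30 class II UMIs and at 163.1 in the other 9, a gap that the limit sets, since Cd74 is 1 of the genes counted.

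Those 5 spleen cells differed from the other 9 in genes that did not choose them. They had no UMI of Ly6c2, against 1060 CPM in the other 9, and Lyz2 was at 1076 CPM against 30625.6. Cd209a was at 1614 against 285.5 CPM, but its UMIs lay in 2 of the 5 cells (27 and 18) and 1 of the other 9 (7). Xcr1, a chemokine receptor of conventional dendritic cells, was at 143.5 CPM from 4 UMIs against 0. The sets of Lyz2 counts are far apart relative to counting error (intervals 726.1 to 1536 and 28474.1 to 32896.5), but all come from 1 library. In blood 17 cells passed the same limit, with Lyz2 at 22705.6 CPM against 45216.4 in the other 76 and Ly6c2 at 720.6 against 2284. Of 9 tested dendritic cell markers 8 were called higher than in neutrophils: the 4 class II genes, Cd209a, Batf3, Clec10a and Flt3. The part of dendritic cells in these results was not tested.

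Primary granule genes set apart a group of cells in bone marrow. There 6 of the 29 cells held at least 10 UMIs of Mpo, Prtn3, Ctsg and Elane, genes of early myeloid progenitors, and these cells held 98.88% of the 1165 UMIs of those genes. They had a median of 13449 UMIs, and 4 of the 6 also held at least 50 UMIs over the cell cycle list. Ly6c2 was at 5820 CPM in them and 3830 in the other 23 cells, and F13a1 at 844.7 and 604.8. Fn1 was at 132 against 650.6 CPM, Lyz2 at 15718.8 against 38256.8, and Cd74 at 0 against 8485. No gated cell of blood or spleen could reach that limit, since the run 1 tables of both tissues have no row for the 4 genes.

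Cell cycle genes were higher in gated cells for 15 of 17 tested genes and none fell, with a median of 2.42. Tubb5 (beta-tubulin) was at 451.7 CPM in blood, 1152 in bone marrow and 1908 in spleen against 54.64, 72.09 and 79.02, Pcna rose by 2.87, Mki67 by 2.79 and Top2a by 2.55. Of the 2238 UMIs of the list 71.36% lay in 12 cells, 3 in blood, 6 in bone marrow and 3 in spleen. All 3 spleen cells and 1 of the blood cells were class II-rich, and 4 of the 6 bone marrow cells were those with primary granule genes. Ube2c, called higher by 1.63, was at −0.17 against neutrophils without the limit on Camp and Ngp. Leaving out the cells high in NK, class II, primary granule or S100 genes left 99 core cells, 73 in blood, 18 in bone marrow and 8 in spleen. Against neutrophils 1171 genes were then higher and 1335 lower.

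The last comparison asked how gated cells differed between tissues. Run 1 alone has 1 library per tissue, so the gated cells of run 2 were added: 32 in blood, 53 of 3823 in bone marrow (1.386%) and 62 of 4353 in spleen (1.424%). The order of tissues by share differed between runs, with blood highest in run 1 and lowest in run 2. The gated cells of spleen in run 2 stood apart: 40 of the 62 held only 4 or 5 gate UMIs, 26 held a single gate gene, and the B cell genes Cd79a and Ighm were at 962.5 and 1531 CPM. The fit had the run as a block, since within a run the same mice gave all 3 tissues, and 3176 genes were tested.

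Between blood and bone marrow, 62 genes were higher in blood (1.95%) and 21 lower (0.661%). Of 12 tested nonclassical genes 9 were higher, with a median of 2.59 against 0.00 for all genes. Nr4a1 was at 189 and 134.6 CPM in blood of runs 1 and 2 against 16.22 and 17.13 in bone marrow, a difference of 3.29 (SE 0.47, adjusted p = 0.0101). Gngt2 was at 1166 and 1768 CPM against 243.4 and 304.1, a difference of 2.53 (SE 0.38). Itgal differed by 2.61, Ear2 by 2.24, Pou2f2 by 2.12, Eno3 by 3.77, Adgre4 by 3.42, Fcgr4 by 2.58 and Cd36 by 4.64. Eno3, Adgre4 and Cd36 were at 0 CPM in gated bone marrow cells of run 1, so the filter on counts passed them mainly through other libraries. Their direction was partly fixed by which genes could be tested. Neutrophil genes moved with blood of run 2: the 17 neutrophil markers lay in its gated cells at a median of 19.14% of their neutrophil level (3.991% in blood of run 1, 5.552% and 10.14% in bone marrow), 9 of its 32 cells had at least 3% of their UMIs on S100a8 and S100a9 (1 of 93 in blood of run 1, 4 of 29 and 6 of 53 in bone marrow), and the neutrophil marker Il1b was itself higher in blood by 3.57 (SE 0.35, adjusted p = 0.00124). Blood neutrophils express Gngt2 (298.2 and 209.2 CPM), Fcgr4 (164.8 and 119.6 CPM) and Itgal (382.5 and 304.8 CPM) too, and the part of neutrophil RNA in these differences was not tested.

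Of the 21 genes lower in blood, 5 were of the neutrophil precursor list and 7 of the cell cycle list. The precursor genes passed the filter on counts only through bone marrow, so their direction was fixed by which genes could be tested, and their levels are a description. Elane was at 3348 and 895.1 CPM in bone marrow, Prtn3 at 1266 and 706.6, Mpo at 1001 and 1062, Ctsg at 686.9 and 389.7 and Ms4a3 at 151.4 and 72.8, each with no UMI in gated blood cells (run 1 lists none of them in blood). In run 1, 98.88% of the counts of the first 4 genes lay in the 6 cells described above. Of 17 cell cycle genes 7 were lower in blood, among them Hmgb2 at 644 and 374.8 against 1850 and 1756 CPM. Ccnb1 and Cdk1, also among the 7, were at 0 and 9.611 CPM in gated blood cells of run 1. The filter thus passed these genes mainly through other libraries, and their direction was partly fixed by it. None of 10 classical genes passed: Ly6c2 was at 1916 and 788.1 CPM in blood against 4646 and 2574 in bone marrow, a difference of −1.38 (SE 0.31, adjusted p = 0.0524).

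By the rule of size, the other genes higher in blood were Gzma, a granzyme of NK and cytotoxic T cells, the chemokine Ccl5, the Notch target Hes1 and the phosphatase Dusp1. Gzma was at 249.9 and 326.8 CPM in blood with no UMI in bone marrow, so its direction was fixed by which genes could be tested. Ccl5 was at 387.7 and 692 CPM against 64.9 and 0. In run 1, 2 gated cells of blood held 84.85% of its NK UMIs. Among the core cells Ccl5 was at −2.01 (adjusted p = 0.556). Hes1 was at 169.8 and 221 CPM against 5.408 and 12.85, a difference of 4.40 (SE 0.48).

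Between spleen and bone marrow, 38 genes were higher in spleen (1.2%) and 21 lower (0.661%). Ly6c2 was at 496.2 and 156.6 CPM in spleen against 4646 and 2574 in bone marrow, a difference of −3.58 (SE 0.36, adjusted p = 0.00116), and Chil3 and Hp were lower too, at −2.27 and −1.60. No gene of the nonclassical list passed, with a median of 1.07 over 12. Of 6 class II genes tested 4 were higher, with Cd74 at 17843.5 and 23424.8 CPM against 5008 and 5473 (2.00, SE 0.41). All 3 tested B cell genes were higher, but from run 2: Cd79a had no UMI in gated spleen cells of run 1. Of the NK list Gzma and Klrd1 were higher, but Gzma had no UMI in bone marrow, so its direction was fixed by which genes could be tested. The genes of largest change were Gzma, Gimap4, Grap, Ccl5 and H2-DMb2, all higher, and Elane, Mpo, Ctsg, Prtn3 and Fabp5, all lower. Elane, Mpo and Ctsg had no UMI in gated spleen cells and Prtn3 had 1, so these 4 too were tested through bone marrow alone. The part of B, NK and dendritic cells in these differences was not tested.

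Between spleen and blood no gene passed with edgeR (0%), with 401 genes at an unadjusted p under 0.05, and DESeq2 called 1. Ly6c2 was at 496.2 and 156.6 CPM in spleen and at 1916 and 788.1 in blood, a difference of −2.20 (SE 0.35, adjusted p = 0.059). Without the run as a block none of the 3 contrasts had a call, with 316, 307 and 244 genes at an unadjusted p under 0.05, and none had among core cells (2139 genes). With 2 libraries per tissue and few cells in spleen of run 1, these tissue calls rest on the block and on which cells were kept.

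**Figure D5:**
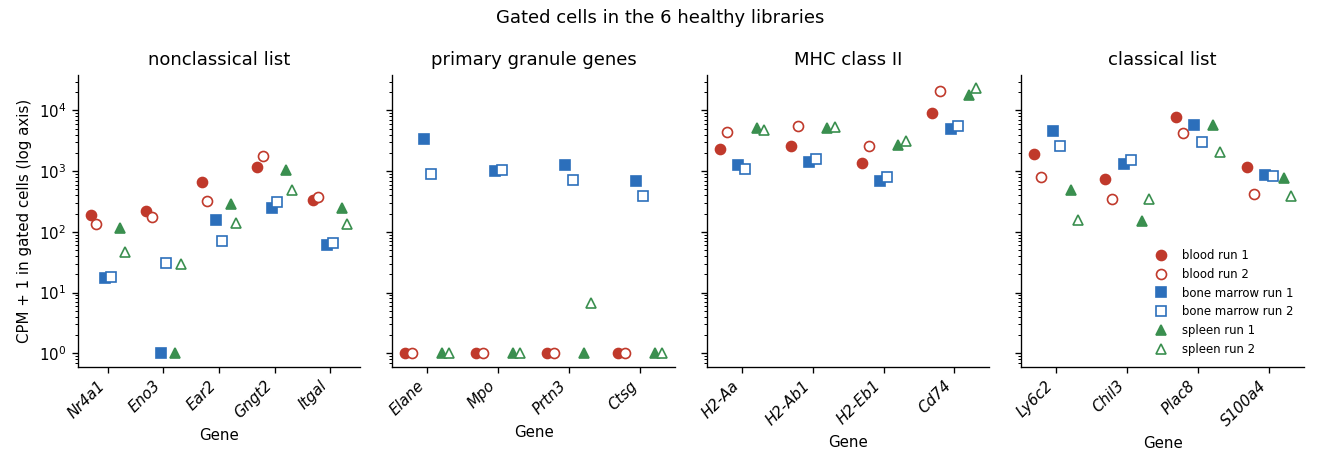
CPM plus 1 on a log axis in the gated cells of each of the 6 healthy libraries for genes of 4 groups, with filled points for run 1 and open points for run 2; points at 1 are genes at 0 or without a row. Nr4a1, Ear2, Gngt2 and Itgal are higher in both blood libraries than in both bone marrow libraries, and the primary granule genes are at 0 in blood.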

How the data were processed

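Reads were aligned to mm10 by the authors with Cell Ranger (1.2.0 for run 1, 2.1.0 for run 2, 3.0.2 for inflammation), and the deposited values are raw UMI counts by gene and cell, before the authors' cell type filter. Sorting had removed scatter doublets, and no doublet caller was run here. The gated cells and gene lists were chosen with earlier results of these data known.

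Counts were summed per library and class and tested with edgeR 4.0.16 (R 4.3.3; TMM, filterByExpr, quasi-likelihood, Benjamini-Hochberg over all genes tested); DESeq2 1.42.0 was an alternative. Fits were checked on simulated data. Genes that chose cells were not tested. Pools of 3 mice make p-values measure the spread between libraries, not between mice. In the comparison with neutrophils these libraries are the 3 tissues of the same mice. Run 1 deviations of tissues correlated at 0.586 to 0.642 over 2798 genes, and the tissues came from the same mice, so the run pairs them. Intervals of counts are exact (Poisson or binomial, 95%) and cover counting error only. Coordinates are those of GRCm38.

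Named genes are those of the gate and split, called members of the lists first by size, and the 10 largest rises and falls (5 for tissues) among genes called, moving alike in every library and at 100 CPM or more on average in the higher class. S1pr5, Ceacam1 and Capg, in both blood libraries, and Il1b, between tissues, were named after their values were seen. Results for 1 gene are not reported here. Alternatives were the gate, low-count filter, scaling, block, reference, depth, run and left-out libraries.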

Additional observations from a re-analysis of the deposited data

Results flagged for a closer look

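The change of gated cells against neutrophils was compared between tissues by an interaction term over the 6 healthy libraries (edgeR, 6903 genes tested, false discovery rate 0.05). Between blood and bone marrow the signed log2 change was higher in blood for 104 genes and lower for 34, between spleen and bone marrow for 63 and 86, and between spleen and blood for 4 and 25. Genes named in the report that passed are given with the difference in log2 change.

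In blood against bone marrow, nonclassical genes were among those with a higher change: Cd36 differed by 5.49, Ear2 by 4.13, Spn by 2.34, Fcgr4 by 1.93 and Itgal by 1.54. Cd36 was at 0 CPM in gated bone marrow cells of run 1. Classical and shared genes also passed, with Lyz2 at 2.23, Chil3 at 1.73, Plac8 at 1.43, Ly6c2 at 1.34, Cd177 at 2.07, Ly86 at 2.16 and Itgb7 at −1.83. Irf8 differed by 3.47, Plaur by 1.96, Cd74 by 1.87, Bst2 by 1.64 and H2-Aa by 1.55. Globin genes differed by 3.97 (Hba-a1), 4.67 (Hba-a2) and 4.49 (Hbb-bt), and Prtn3 by −10.15, with no Prtn3 UMI in gated blood cells of run 2 and no row for it in blood of run 1.

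In spleen against bone marrow, Hba-a2 differed by 4.98, Ear2 by 2.21 and Irf8 by 1.83. Lower changes in spleen were those of Prtn3 at −6.57, Klf4 at −4.42, Ms4a6b at −2.45, Ifitm1 at −2.32, Itgb7 at −1.96, Ctss at −1.95, Ctsc at −1.84, Hp at −1.56 and Gngt2 at −1.54. Prtn3 had almost no UMIs in gated spleen cells, and Klf4 had no row in spleen of run 1. The direction of these 2 genes was partly set by which genes were listed and could be tested.

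In spleen against blood every named gene that passed had a lower change in spleen. They were Ms4a6b at −3.14, Ly6c2 at −2.27, Ifitm1 at −2.24, Plaur at −2.17, H2-Eb1 at −2.08, Cd74 at −1.99, Chil3 at −1.92, H2-Ab1 at −1.84, H2-Aa at −1.70, Lyz2 at −1.60 and Plac8 at −1.52. Neutrophils of the tissues differ too, and each difference is of 2 changes.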

How the results depend on the processing

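Library totals, run 2 alone, genes listed in all 3 tables, core cells and the interaction term were chosen after seeing the data, as was leaving out haemoglobin-rich neutrophils. Against neutrophils, the 1547 higher genes became 893 with DESeq2, 781 with gated cells holding fewer than 3 UMIs of 6 neutrophil genes, 1031 against neutrophils of matched depth and 2876 with library totals, and the 1624 lower genes became 976, 921 and 614 under the last 3. Leaving out a library gave 1021 to 1465 and 1077 to 1393, the lowest without blood. Over 96 genes, 1506 of 1564 values kept direction and side of the threshold, 34 lost the call, 17 gained it and 7 reversed. The reversed values were Chil3 at −2.66 and Ube2c at −0.17 against all neutrophils, Ube2c at −2.09 with few neutrophil UMIs, Fcer1g at 0.03 with library totals, and, among core cells, which leave out class II-rich cells by construction, H2-Aa at −0.70, H2-Ab1 at −0.16 and H2-Eb1 at −0.74. The cause of the others was not tested.

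The tissue calls depended on the settings. The replicate block (run) pairs the tissues, and with no replicate block all 3 contrasts had 0 calls, as with core cells, where Ccl5 in blood against bone marrow was at −2.01. The 83, 59 and 0 calls became 37, 26 and 1 with DESeq2, 274, 191 and 100 with no filter, and 221, 32 and 6 with the gate at 6 UMIs. Spleen against blood had 5 calls without the deepest cells and 3 with library totals. Each tissue had 2 libraries, so leaving out 1 of a compared tissue leaves an arm of 1 library, which is assumed to vary like the others. Leaving out a library gave 46 to 381, 26 to 235 and 0 to 132 calls. Blood against bone marrow had 134 and 46 calls without blood of run 1 and run 2 and 381 and 284 without spleen of run 1 and run 2. Spleen against bone marrow had 210 and 93 without the blood libraries, 98 without bone marrow of run 1, and 235 and 26 without the spleen libraries. Spleen against blood had 91 without blood of run 1, 73 and 84 without the bone marrow libraries, and 132 and 8 without the spleen libraries. Of 550 tissue values of 44 genes 420 kept direction and side of the threshold, 129 lost the call and 1 reversed.

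In blood of run 2 the nonclassical-leaning share was 47.83% and the list medians 1.33 and −0.09. Gating cells thinned to 1000 UMIs, which leaves out shallower cells, gave 60 of 607 cells in blood (9.885%), 19 of 1271 in bone marrow (1.495%) and 6 of 809 in spleen (0.7417%), in place of 93 of 1588, 29 of 1271 and 14 of 1219. For the split in run 1, DESeq2, no filter and leaving out a library gave no value, since 1 library held both classes.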
